A study of Mus musculus with 7 samples.

Results

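Pou5f1, Sox2, Nanog, Esrrb, Klf5, Tfcp2l1, Sall4, Utf1 and Lin28a are 9 genes of the network that keeps embryonic stem cells pluripotent, and each was found by its NCBI mouse gene number. All 9 were present among 24990 features, and 8 of the 9 passed the filter on low counts. Esrrb did not. Expression was followed in embryoid bodies on day 4, which are aggregates that form when embryonic stem cells are grown in suspension without the cytokine Lif. The cells came from the mouse line R1 and were freed of feeder fibroblasts before aggregation. The 7 libraries were titled WT (2 libraries), pKO (2), pInv (1), Ctrl (1) and KD (1). The groups named by the series are wild type, a knockout of the promoter of the long non-coding RNA Meteor, an inversion of that promoter, a control that the sample field calls empty vector, and a CRISPR knockdown of Meteor. The labels do not say whether an edited line is 1 clone, nor whether libraries of a group come from separate cultures. Whether differences between replicates are technical or biological can therefore not be told from the labels.

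The labels conflict. The genotype field names another genotype than the title for 5 of the 7 libraries: promoter knockout for both WT libraries, promoter inversion for pKO1, and wild type for pKO2 and pInv. The knockdown is named as Cas9 in the design text and as dCas9 in the sample field. Groups here follow the titles, and each direction below holds for the libraries as titled. Totals ran from 1898350 to 2564478 expected counts a library. The library titled WT2 stood apart, with Mixl1, a gene of the primitive streak, at 7.17 counts per 1000000 (CPM) against 51.9 to 126 in the other 6, and T (Brachyury) at 54.4 against 177 to 357. Eomes, whose control through the Meteor locus is the subject of the study, lay between 311 and 457 CPM in all 7. The KD library held RNA of macrophage genes: Lyz2 stood at 174 CPM against at most 0.746 elsewhere, and Csf1r at 12.4 against 0, while Ptprc was at 0 in KD.

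Pou5f1 (Oct4), a POU domain factor, and Sox2, an HMG box factor, bind side by side on DNA and switch on genes of the pluripotent state, their own genes and Nanog among them. Nanog, a homeobox factor, and Esrrb, Klf5 and Tfcp2l1 hold cells in the naive state that resembles the epiblast before implantation. When stem cells leave that state, the naive factors are usually shut down first, while Pou5f1 is kept in the epiblast and into the primitive streak. Sall4 is a zinc finger factor, Utf1 a chromatin-bound protein of undifferentiated cells, and Lin28a an RNA-binding protein that blocks maturation of the let-7 microRNAs.

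The 250 bases before the start of Pou5f1, Sox2 and Nanog are shown, since POU and SOX letters are those through which the core factors are known to act on each other. Where RefSeq lists 2 starts, for Pou5f1 and Nanog, 1 window is shown. Sequences are from RefSeq on GRCm38.p6, all on the plus strand, and capitals mark matches on either strand to the POU site ATGCAAA or the SOX sites ACAATG and ACAAAG.
Pou5f1, chr17:35505782-35506031: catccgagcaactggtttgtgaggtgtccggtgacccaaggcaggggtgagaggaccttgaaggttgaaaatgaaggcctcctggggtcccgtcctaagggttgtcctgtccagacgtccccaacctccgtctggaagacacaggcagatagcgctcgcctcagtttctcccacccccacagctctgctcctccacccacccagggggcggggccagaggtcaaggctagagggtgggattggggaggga
Sox2, chr3:34649745-34649994: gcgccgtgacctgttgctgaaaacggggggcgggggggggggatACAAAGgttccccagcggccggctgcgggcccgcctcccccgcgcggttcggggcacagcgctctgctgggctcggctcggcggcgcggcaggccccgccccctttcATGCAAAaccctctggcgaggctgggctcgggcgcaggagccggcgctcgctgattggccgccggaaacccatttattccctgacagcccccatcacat
Nanog, chr6:122707315-122707564: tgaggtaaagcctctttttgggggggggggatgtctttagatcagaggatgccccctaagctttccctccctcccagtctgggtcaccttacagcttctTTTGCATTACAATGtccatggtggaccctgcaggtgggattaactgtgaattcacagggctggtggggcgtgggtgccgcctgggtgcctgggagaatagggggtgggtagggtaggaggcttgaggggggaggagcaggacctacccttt
The capitals of Nanog hold, read from the minus strand, a composite motif in which a SOX and a POU site abut (ATTGT, any 1 base, then ATGCAAA). The same letters occur in 8 of 32851 promoter windows of this length (0.0244%), the 2 overlapping windows of Nanog among them. The run begins 151 bases before this start of Nanog and 75 bases before an earlier start that RefSeq also lists. Sox2 carries the POU site alone, 99 bases before its start, and ACAAAG 206 bases before it. ATGCAAA on either strand is present in 4.12% of all windows, ACAAAG in 16.5% and ACAATG in 10.7%, overlaps with the composite motif included. The Pou5f1 window shown has none of these letters, while the window of its second listed start holds ACAATG, 158 bases before that start. Windows were found for 7 of the 9 genes, the 2 without one being Sall4 and Klf5, and over the 7 the POU site occurred in Sox2 and Nanog.

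Pou5f1 was by far the most abundant of the 9. Per transcript length, its median over the 7 libraries was 2018 TPM (transcripts scaled to a total of 1000000), against 148 for Sox2, 123 for Sall4, 36.1 for Lin28a, 32.2 for Klf5, 17.0 for Utf1 and 14.9 for Nanog. Esrrb (1.27 TPM) and Tfcp2l1 (1.16 TPM) were lowest. The kit reads transcripts from the 3′ end, so dividing by length may not fit these counts, and the order rests on the authors' lengths. By median CPM, without length, Sall4 (145) stood above Sox2 (95.6) and Nanog (15.2) above Utf1 (13.6). In CPM, Pou5f1 measured 1353 and 2178 in WT1 and WT2, 1393 and 1713 in pKO1 and pKO2, and pInv, Ctrl and KD gave 1617, 1529 and 1081. WT2 was highest and KD lowest, and both pKO libraries and pInv lay between the WT libraries. The group means were 1766 ± 584 (SD, n = 2) in WT and 1553 ± 226 (SD, n = 2) in pKO. Counting error was small beside this: WT2 exceeded WT1 by 1.61 times (exact 95% interval 1.54 to 1.69). In a bulk sample, fewer cells of a type and less RNA per cell cannot be told apart.

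Sox2 was steadier than Nanog, though its highest library, Ctrl, stood 2.48 times above its lowest, KD. Sox2 measured 87.7 and 101 CPM in WT, 101 and 95.6 in pKO, and pInv, Ctrl and KD gave 73.9, 117 and 47.3. The WT and pKO libraries overlapped, with means of 94.3 ± 9.40 and 98.2 ± 3.70 CPM (SD, n = 2 each). Ranked from high to low, 1 of the 6 steps between neighbouring libraries exceeded counting error, the last one, where pInv stood 1.56 times above KD (exact 95% interval 1.22 to 2.01). The non-coding gene Sox2ot lies within 2000 bases of Sox2 or over it in RefSeq, and without a stated strand its reads cannot be told from those of Sox2. The same limit holds for Pou5f1 (Gm32362 and Tcf19), Esrrb (Gm40483), Tfcp2l1 (LOC115487679) and Sall4 (Gm14261), and no neighbour lies that close to the other 4 genes.

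Nanog differed more within groups than between them. It measured 33.6 and 7.77 CPM in the WT libraries, 22.8 and 10.2 in pKO, and pInv, Ctrl and KD gave 18.6, 15.2 and 12.0. The WT libraries held both the highest and the lowest value of all 7, and every other library lay inside that range. WT2 held 0.231 times the level of WT1 (exact 95% interval 0.119 to 0.416, from 13 and 90 counts), and pKO2 held 0.447 times that of pKO1 (0.264 to 0.740). The SD of log2(CPM + 1) over the 7 libraries was 0.68 for Nanog, larger than for 92.5% of tested genes within 1.5-fold of its mean level. Against genes near their own level, the share was 90.7% for Utf1, 87.8% for Tfcp2l1, 86.8% for Klf5 and 84.9% for Sox2. It was 64.9% for Pou5f1 and 54.3% for Sall4.

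Of the other naive factors, Klf5 was low in WT2 and between 22.5 and 33.3 CPM in the rest, while Esrrb and Tfcp2l1 were close to the detection limit. Klf5 measured 29.1 and 10.8 CPM in WT, 33.3 and 30.6 in pKO, and pInv, Ctrl and KD gave 24.1, 31.8 and 22.5. WT2 was lowest, at 0.370 times WT1 (exact 95% interval 0.208 to 0.623). Tfcp2l1 measured 2.99 and 0.598 CPM in WT, 6.18 and 7.76 in pKO, and pInv, Ctrl and KD gave 2.53, 7.08 and 3.22, from 1 count in WT2 to 19 in pKO2. Both pKO libraries exceeded both WT libraries, and Ctrl lay between the pKO libraries. Esrrb ran from 0.460 CPM in KD to 3.27 in pKO2, on 1 to 8 counts a library, and the exact interval of its highest over its lowest value included 1. A level of 3 counts corresponds to 1.12 CPM in WT1 and 1.79 in WT2.

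Among the remaining genes, Lin28a was nearly level across libraries, while the highest library exceeded the lowest by 1.60 times for Sall4 and by 4.22 times for Utf1. Sall4 measured 145 and 105 CPM in WT, 145 and 167 in pKO, and pInv, Ctrl and KD gave 123, 162 and 167. WT2 was again lowest, at 0.722 times WT1 (exact 95% interval 0.601 to 0.866). Lin28a stayed between 45.9 CPM in WT1 and 59.1 in Ctrl, a ratio of 1.29 whose exact interval included 1. Its SD of log2(CPM + 1), 0.16, was larger than that of only 11.8% of tested genes of like level. Utf1 measured 10.8 and 18.5 CPM in WT, 23.3 and 9.39 in pKO, and pInv, Ctrl and KD gave 19.0, 13.6 and 5.52, so the pKO libraries spanned both WT libraries.

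**Figure D1:**
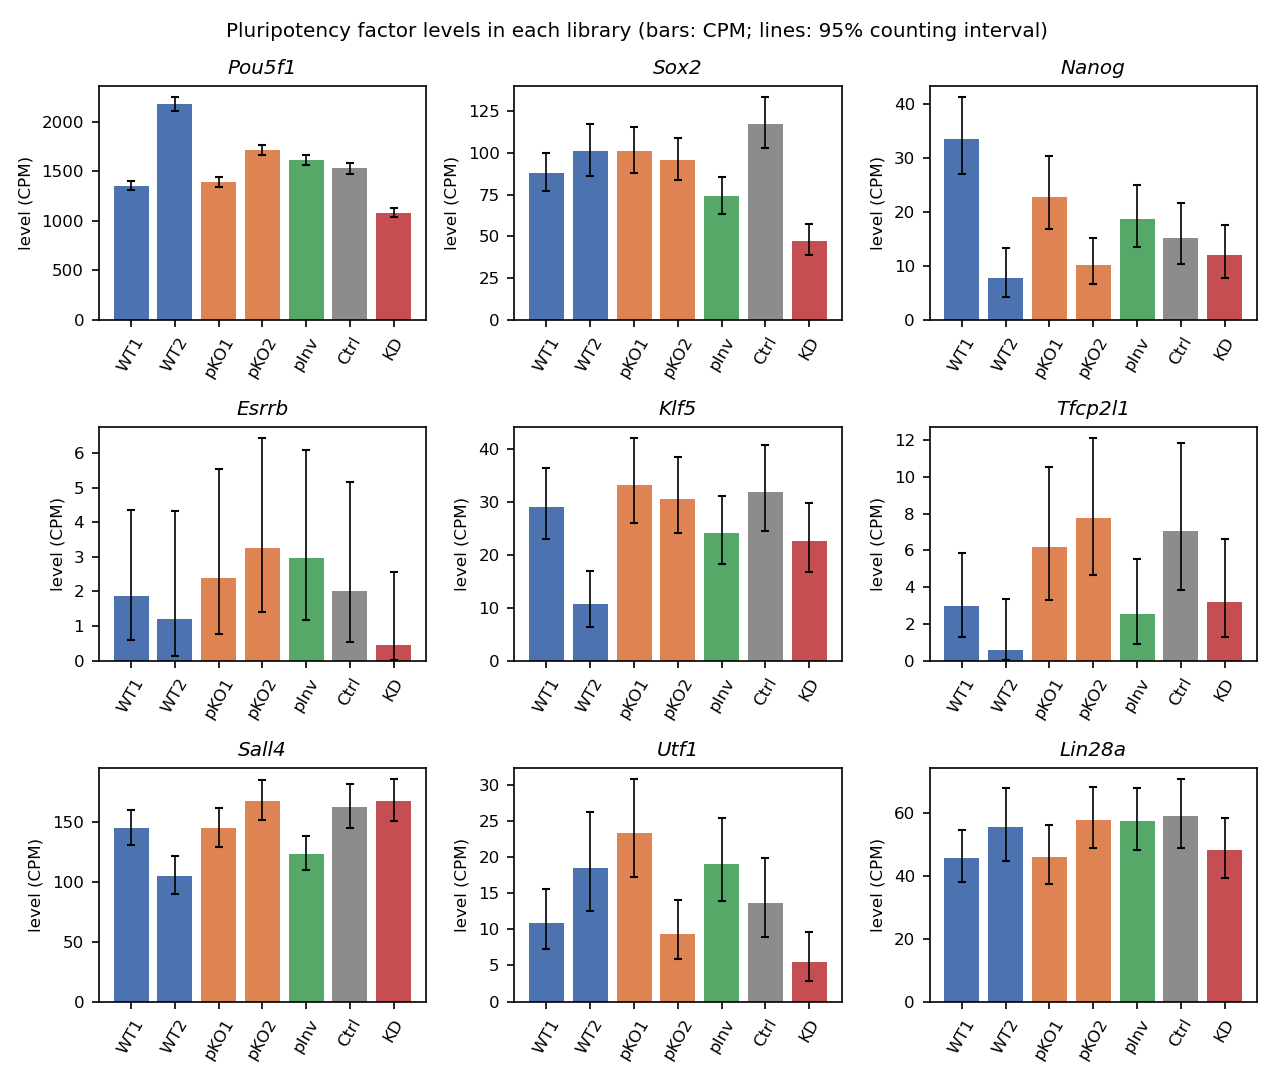
Levels of the 9 genes in CPM (linear axis) in each of the 7 libraries, with lines for the exact 95% Poisson counting interval. Pou5f1 is at 1081 CPM or more in every library, and the WT libraries are the highest and the lowest of all 7 for Nanog.

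WT2 and KD were the lowest libraries for most of the 9 genes, and for many other genes too. Nanog, Klf5, Tfcp2l1 and Sall4 were lowest in WT2, 4 of the 8 genes that passed the filter, where WT2 was lowest for 28.2% of all 10265 tested genes. Pou5f1, Sox2 and Utf1 were lowest in KD, 3 of 8, against 17% of all tested genes. Between WT2 and WT1, the counting interval left out 1 for 4 of the 6 genes at 20 CPM or more, against 57.6% of all 5157 genes at that level. Between pKO2 and pKO1 it did so for 3 of 7 (Pou5f1, Nanog and Utf1), against 38.7% of 4984 genes. Libraries of the same title thus differed beyond counting error at about as large a share of these genes as of genes at large.

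**Figure D2:**
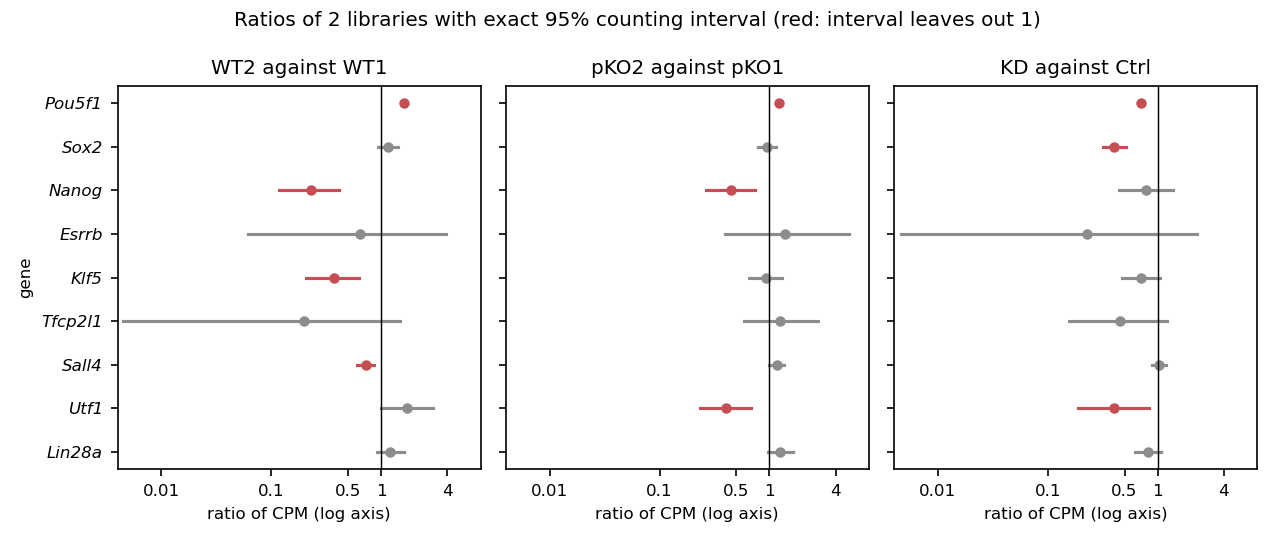
Ratios of CPM (log axis) for each of the 9 genes between the 2 WT libraries, the 2 pKO libraries, and KD and Ctrl, with exact 95% counting intervals. Nanog is below 1 in both replicate pairs, at 0.231 and 0.447, while Sox2 leaves 1 only in KD against Ctrl.

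Setting each gene against Pou5f1 of the same library removes the scaling between libraries. Nanog gave 2.48 and 0.357 counts per 100 of Pou5f1 in WT, 1.64 and 0.596 in pKO, and pInv, Ctrl and KD gave 1.15, 0.992 and 1.11. WT1 was again highest and WT2 lowest, and the exact 95% intervals of WT1 (1.99 to 3.06) and WT2 (0.190 to 0.610) lay apart. Sall4 gave 10.7 and 4.80 counts per 100 of Pou5f1 in WT, 10.4 and 9.78 in pKO, and pInv, Ctrl and KD gave 7.63, 10.6 and 15.5. Its KD interval (13.8 to 17.3) lay above those of the other 6 libraries, and its WT2 interval (4.10 to 5.59) below them. In CPM, Sall4 was level between KD (167), pKO2 (167) and Ctrl (162), and lowest in WT2 (105). Pou5f1 was lowest in KD and highest in WT2, so these ratios carry the level of Pou5f1 as well. Sox2 gave 6.48 and 4.64 counts per 100 of Pou5f1 in WT, and 7.24 and 5.58 in pKO. For pInv, Ctrl and KD the Sox2 values were 4.57, 7.67 and 4.38. Thus the balance among the 9 genes differed between the 2 WT libraries, at high Pou5f1 and low Nanog, Klf5 and Sall4 in WT2.

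**Figure D3:**
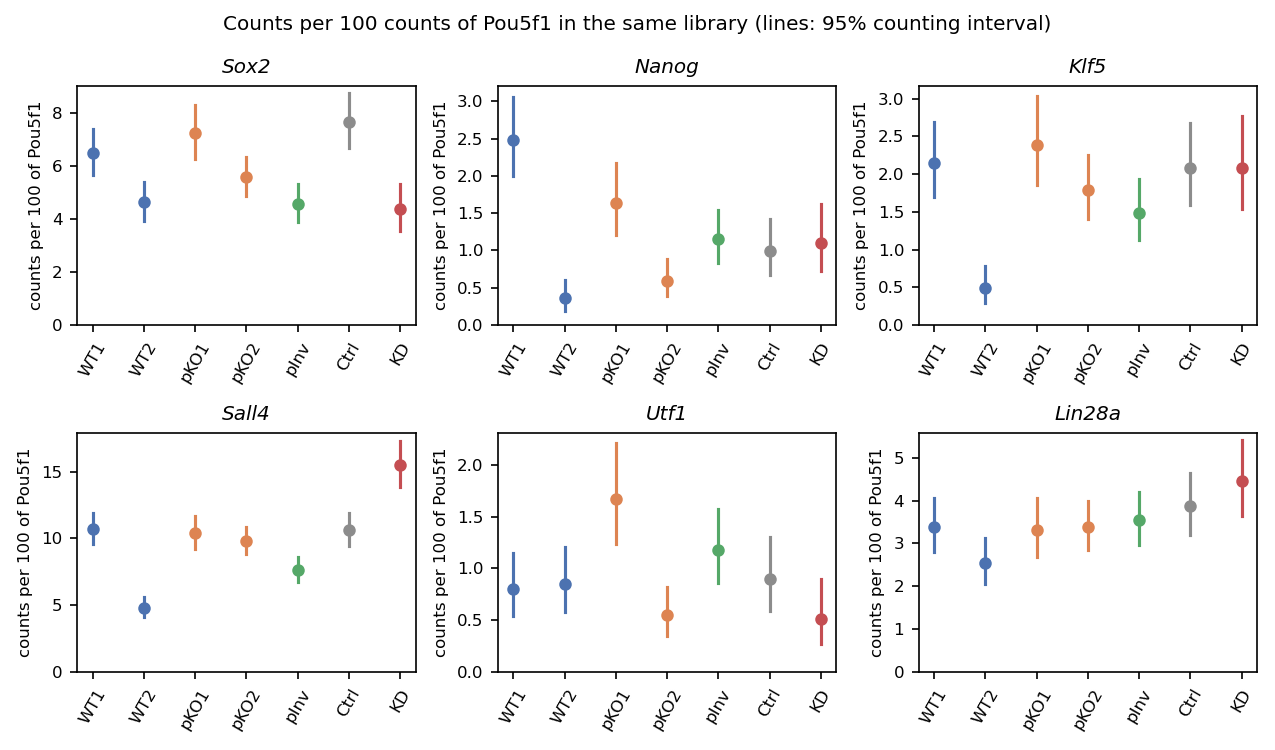
Counts per 100 counts of Pou5f1 in the same library for 6 genes, with 95% counting intervals, by library. WT2 is lowest for Nanog (0.357), Klf5 and Sall4 (4.80), and KD, the library lowest in Pou5f1, is highest for Sall4 (15.5).

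None of the 8 tested genes passed the test between promoter knockout and wild type. All 7 libraries entered 1 fit of edgeR's quasi-likelihood test, and 0% of all 10265 genes were called there at an adjusted p under 0.05 (Benjamini-Hochberg), with 106 at an unadjusted p under 0.05. DESeq2 and limma also called 0 genes, here and in the comparisons of pInv. Without the filter edgeR called 9 genes in pKO against WT, 0 of them among the 9 pluripotency genes. Tfcp2l1 had the largest difference of the 8, at 1.47 on the log2 scale (SE 0.62) in pKO against WT, with an unadjusted p of 0.046 and an adjusted p of 1 in edgeR. It rested on at most 19 counts a library, and Ctrl, which carries no promoter deletion by its title, stood at 7.08 CPM. The edgeR fit adds a prior count of 2, which draws differences of low-count genes toward 0. DESeq2 gave 1.91 (SE 1.30) for Tfcp2l1. Without WT2 the edgeR difference was 1.05, and without WT1 it was 2.37. Klf5 differed by 0.63 (SE 0.45), with WT2 the low library, by 0.15 without WT2 and by 1.49 without WT1, with neither gene called. Pou5f1 differed by -0.18 (SE 0.31), Sox2 by 0.059 (SE 0.26), Nanog by -0.36 (SE 0.63), Sall4 by 0.32 (SE 0.28), Utf1 by 0.16 (SE 0.49) and Lin28a by 0.042 (SE 0.30). The median over the 8 was 0.11, against -0.0010 over all tested genes. pKO lay above WT with no overlap for Klf5 and Tfcp2l1, 2 of the 8 tested genes, against 12% of all tested genes.

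The inverted promoter likewise gave no call. In pInv against WT and in pInv against pKO, 0 of the 8 genes passed edgeR's quasi-likelihood test, against 0% of all 10265 genes, with 152 and 153 genes at an unadjusted p under 0.05 and none of the 8 among them. Sox2 differed by -0.35 (SE 0.32) from WT and by -0.41 (SE 0.33) from pKO. Tfcp2l1 differed by 0.27 (SE 0.77) from WT and by -1.20 (SE 0.77) from pKO. Pou5f1 differed by -0.13 (SE 0.39) and 0.058 (SE 0.38), and Nanog by -0.19 (SE 0.77) and 0.17 (SE 0.77). pInv is a single library, assumed to vary like the WT and pKO libraries, and both comparisons share it. The SE of 0.63 for Nanog and 0.31 for Pou5f1 in pKO against WT set the size of change that these libraries could show.

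**Figure D4:**
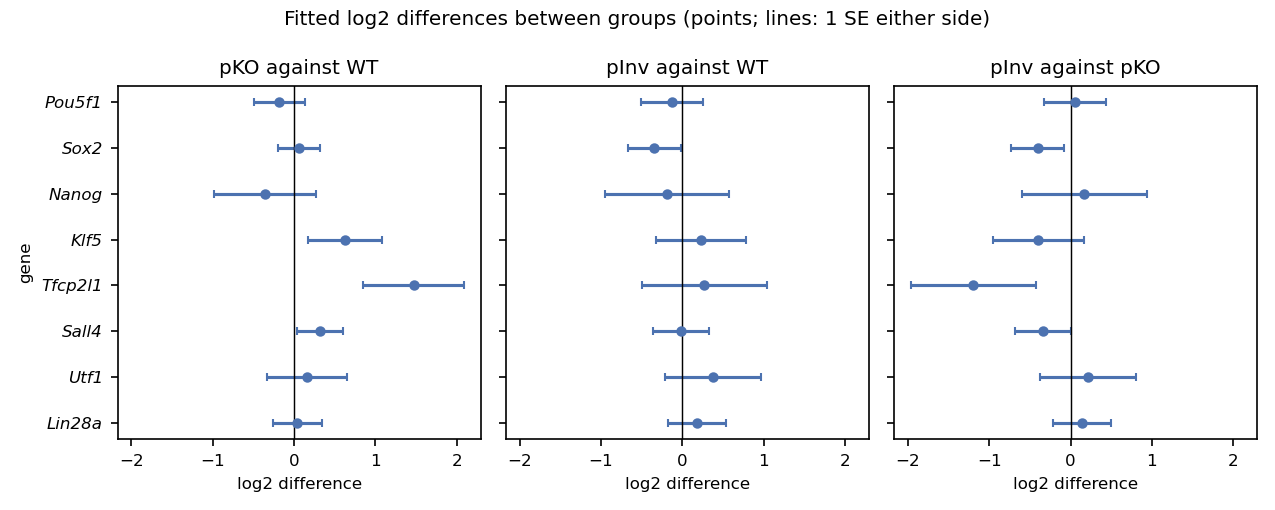
Fitted log2 differences of the 8 tested genes in the 3 tested comparisons, with lines of 1 SE either side. Tfcp2l1 in pKO against WT is farthest from 0, at 1.47, and no gene passed the test in any comparison.

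The knockdown library was lower than its control for 8 of the 9 genes, Sox2 most clearly. At 20 CPM or more it was lower for 4 of 5, where 53.5% of all 5083 genes were. With 1 library each there is no test between these conditions, and intervals cover counting error only. Sox2 stood at 47.3 CPM in KD against 117 in Ctrl, a ratio of 0.404 (exact 95% interval 0.317 to 0.511). It was 1 of 64 genes that were at 20 CPM or more in either library and lower by 2-fold or more, 1.26% of 5083 such genes, and the only 1 of the 5 genes at that level (Pou5f1, Sox2, Klf5, Sall4 and Lin28a) to pass this size rule. Pou5f1 stood at 0.707 times Ctrl (0.670 to 0.746). Utf1, below 20 CPM, stood at 0.404 times Ctrl (0.187 to 0.825). Sall4 was level, at 1.03 times Ctrl (0.885 to 1.20), and for Nanog (0.788), Klf5 (0.707), Lin28a (0.816), Tfcp2l1 (0.455) and Esrrb (0.227) the interval included 1. Of the 5 genes at 20 CPM, 2 had an interval without 1, against 32% of all 5083. Over the 5 genes at 20 CPM the median log2 ratio was -0.50, against -0.033 over all 5083.

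Sums of marker genes of other cell types also differed between KD and Ctrl. The 12 macrophage and blood genes summed to 195 CPM in KD against 2.04 to 8.08 in the other 6 libraries, Lyz2 making up most of it. The nascent mesoderm genes summed to 772 CPM in KD against 223 to 391 elsewhere. The 10 genes of neuroectoderm, a tissue that also expresses Sox2, summed to 46.4 CPM in KD and 57.1 in Ctrl. The other libraries ran from 47.0 in WT1 to 75.9 in WT2. Nes made up most of these sums, at 43.2 CPM in KD, 43.7 in WT1 and 54.6 in Ctrl. Sox1, an early marker, was at 0 in all 7 libraries and Pax6 at most 1.49 CPM. The part of these cell types in the lower Sox2 and Pou5f1 of KD was not tested. Ctrl was the highest of all 7 libraries in Sox2 and KD the lowest, so this ratio sets the 2 extremes against each other.

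The wider network was described by lists chosen by function. Of 20 further naive genes, 17 were under 20 CPM in every library, with Nr0b1 and Socs3 at 0 in all 7. The summed level of the 20 was highest in WT2, at 310 CPM, against 194 to 277 in the other libraries. Nanog, Klf5 and Tfcp2l1 were instead lowest in WT2. Mybl2 and Lifr were the largest parts of this sum. None of the 13 tested was called by edgeR in pKO against WT, with 5 lower, 8 higher and a median log2 difference of 0.23. Of all tested genes, 50.1% were lower in that comparison. The smallest p belonged to Fbxo15, a marker of undifferentiated cells, at 6.72 and 4.78 CPM in the WT libraries and at 12.8 and 13.1 in the pKO libraries (unadjusted p = 0.035, adjusted p = 1 in edgeR). Tbx3, with 2.99 and 0.598 CPM in the WT libraries against 6.18 and 6.54 in the pKO libraries, came next (unadjusted p = 0.052 in edgeR). Its WT2 level lay below 3 counts. In pInv, Ctrl and KD, Tbx3 stood at 1.27, 5.06 and 14.2 CPM, and Fbxo15 at 11.4, 5.06 and 9.65. In the single pInv library, 10 of the 13 were lower than WT and 3 higher, with none called, where 50.8% of all tested genes were lower.

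Genes shared by naive and later pluripotent cells were well expressed, 22 of 24 reaching 20 CPM in some library. None of the 24 was called in any tested comparison, with 8 lower and 16 higher in pKO against WT and a median log2 difference of 0.14. Cdh1, which encodes E-cadherin, measured 591 and 574 CPM in WT, 823 and 515 in pKO and 1365 in pInv. pInv was highest of all 7 libraries, with a log2 difference of 1.23 from WT (SE 0.36, unadjusted p = 0.009, adjusted p = 1 in edgeR). In KD against Ctrl, Mycn was 3.46 times as high and Dppa4, which binds DNA in pluripotent cells, 0.386 times, 2 of 21 genes at 20 CPM, against 5.29% of all such genes.

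Of 15 tested genes of the epiblast after implantation, 7 were lower and 8 higher in pKO than in WT, none of them called. Pou3f1, a POU factor of that stage, was the 1 of 13 genes at 20 CPM to pass the size rule in KD, at 0.499 times Ctrl, where 5.29% of all such genes passed it either way. Of the 11 genes around LIN28A and let-7, 7 were lower and 4 higher in pKO and none was called. Hmga2, a let-7 target, measured 120 and 57.4 CPM in the WT libraries against 145 and 153 in the pKO libraries (unadjusted p = 0.078, adjusted p = 1 in edgeR), WT2 again being lowest. Of 22 tested relatives of the SOX, POU, KLF, SALL, ESRR and TFCP2 families, 9 were lower and 13 higher in pKO, none of them called.

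The genes whose levels ran most like each core factor were found by the root mean square difference of log2(CPM + 1), each gene centred on its mean over the 7 libraries, among 4533 genes of mean 20 CPM or more. Pou5f1 was closest to Ubtf, an RNA polymerase I factor, at 0.050, then Pum3 at 0.059, where the median gene lay at 0.34. Nanog was closest to Slc2a3, a glucose transporter, at 0.27, then Pim2 at 0.28, with a median of 0.67. Sox2 was closest to Gadd45a at 0.14, then Cit at 0.17, with a median of 0.45. Counting error alone was about 0.27 on the log2 scale for Nanog, 0.11 for Sox2 and 0.025 for Pou5f1. The distances can therefore not be compared between these factors. Picking the closest of 4533 genes over 7 libraries also favours small distances. Slc2a3 measured 193 and 65.7 CPM in WT, 143 and 85.0 in pKO, and pInv, Ctrl and KD gave 102, 89.5 and 114. It was thus higher in WT1 than WT2 and in pKO1 than pKO2, as Nanog was. KD lay above Ctrl for Slc2a3 but below it for Nanog (12.0 against 15.2 CPM), whose ratio had an interval that included 1.

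**Figure D5:**
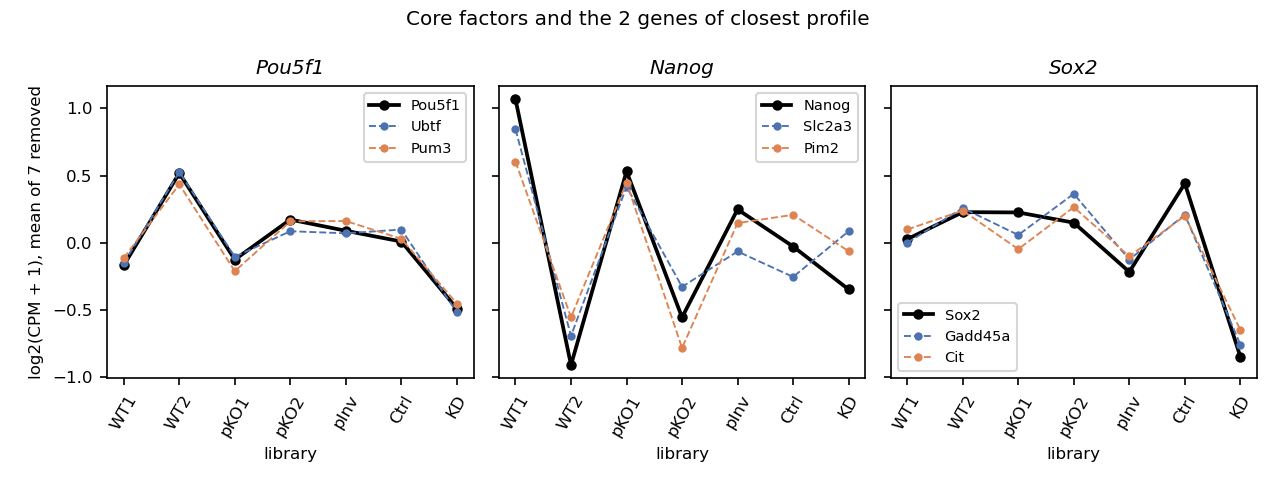
Log2(CPM + 1) less the mean of the 7 libraries, for Pou5f1, Nanog and Sox2 (black) and the 2 genes closest to each (dashed), by library. The Pou5f1 lines nearly coincide, at distances of 0.050 and 0.059. Those of Nanog lie farther apart, at 0.27 and 0.28, beside a counting error of about 0.27 for Nanog itself.

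The 9 genes did not vary as a unit. Over the 36 pairs of genes, Pearson's r of log2(CPM + 1) across the 7 libraries ran from -0.69 (Pou5f1 and Sall4) to 0.91 (Klf5 and Tfcp2l1), with a median of 0.20 and 25 pairs above 0. Without WT2 the median was 0.36. Without it, Pou5f1 and Sall4 gave -0.27, Klf5 and Tfcp2l1 0.78, and Pou5f1 and Klf5 0.46, where they had given -0.56 with it. Pou5f1 and Nanog gave -0.49, and -0.10 without WT2. Pou5f1 and Sox2 gave 0.64. These values are descriptions over libraries that share scaling, and those with Esrrb or Tfcp2l1 rest on few counts.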

How the data were processed

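Polyadenylated RNA of 7 day 4 embryoid body libraries was read from the 3′ end with the Lexogen QuantSeq kit, per the labels' protocols. For each library the authors deposited RSEM estimates per gene, per the file headers. The deposited expected counts are not normalized. RSEM (version not stated) and the build mm9 are named in the submitters' processing notes. The TPM deposited by the authors are scaled to length and to a fixed total, and were used for levels between genes and in 1 alternative. The FPKM deposited by the authors were not used. No label or header names a trimming step or a strand setting. Of a library's counts, 12.9% to 24.1% belonged to the 45S precursor of ribosomal RNA. The lengths in the tables exceed the GENCODE length of the same transcript by a median of 1999 bases over 17547 features, so reads beyond a gene's annotated end may be included, and TPM divide by these longer lengths. Of the 63 expected counts of the 9 genes, 58 lay within 0.1 of a whole number, the tolerance used, so the estimate split few of their reads with other features.

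Expected counts were rounded. In R 4.3.3, edgeR 4.0.16 kept 10265 genes by its filterByExpr rule, scaled libraries by TMM and modelled all 7 together, 1 coefficient a group, by quasi-likelihood. Single-library groups take their spread from WT and pKO, on 2 residual degrees of freedom and a prior of 5.86, and the common biological coefficient of variation was 0.294. The log2 differences of edgeR carry a prior count of 2, which draws those of low-count genes toward 0. Their SE is the size of that difference over the square root of the F statistic. Adjusted p-values are Benjamini-Hochberg over all tested genes, called under 0.05. CPM are expected counts per 1000000 of TMM-scaled library size. KD and Ctrl, with 1 library each, were compared by size: at least 20 CPM in either and 2-fold. Ratios of 2 libraries carry exact binomial 95% intervals (scipy 1.17.1) and CPM exact Poisson ones. Reads carry no stated molecular identifiers, so these cover counting error only. The procedure was tested on simulated data. Alternatives used DESeq2 1.42.0, limma 3.58.1 (with voom, and on log2(TPM + 1)), other scalings, no filter, left-out libraries, a replicate block and the genotype field.

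The 9 genes and the lists were chosen with earlier results of these data known. Besides the 9, the text names up to 4 genes of smallest p or largest ratio per list and comparison, and the 2 genes closest to each of Pou5f1, Nanog and Sox2 (the rule took 3, and the third is not reported here). Other genes named, such as those at 0, state cell types or neighbours. Names come from a RefSeq table of GRCm38.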

Additional observations from a re-analysis of the deposited data

How the results depend on the processing

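No tested gene of the 9 was called under any of the 14 alternative fits of pKO against WT or the 13 of each pInv comparison, and 39 of 320 recomputed log2 differences changed sign, none of them called. Without the filter, pKO against WT called 9 genes in all, pInv against WT 6 and pInv against pKO 8. Leaving out 1 library gave 0 to 7, 0 to 0 and 0 to 7 in the same order: 4 without pKO1 and 7 without pKO2 for pKO against WT, and 2 and 7 for pInv against pKO. Grouping by the genotype field gave 7 genes for pInv against WT. Under that grouping the log2 difference of pKO against WT was 0.084 for Pou5f1, 0.54 for Nanog, -0.41 for Klf5, -1.09 for Tfcp2l1, -0.22 for Sall4 and -0.19 for Lin28a. That of pInv against WT was 0.25 for Sox2, 0.63 for Nanog and -0.32 for Lin28a, and that of pInv against pKO was -0.34 for Pou5f1, 0.10 for Sox2, 0.68 for Klf5, 1.31 for Tfcp2l1, 0.21 for Sall4 and -0.13 for Lin28a. Under total count scaling pInv against WT was 0.023 for Pou5f1 and 0.082 for Sall4. For Nanog it was 0.055 with limma-voom and 0.13 with limma on TPM. The labels do not say that replicate numbers mark a shared source, and the differences WT1 less WT2 and pKO1 less pKO2 correlated at 0.31. With the replicate number as a block, 1 gene was called for pInv against WT, where Pou5f1 gave 0.16 and Klf5 -0.011, and Nanog gave -0.48 for pInv against pKO.

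Leaving out 1 library at a time, pKO against WT ran from -0.49 to 0.22 for Pou5f1, -0.039 to 0.18 for Sox2, -0.98 to 0.99 for Nanog, 0.15 to 1.49 for Klf5, 1.05 to 2.37 for Tfcp2l1, -0.58 to 0.66 for Utf1 and -0.13 to 0.20 for Lin28a. pInv against WT ran from -0.43 to 0.25 for Pou5f1, -0.83 to 1.16 for Nanog, -0.27 to 1.10 for Klf5, -0.18 to 1.17 for Tfcp2l1 and -0.23 to 0.24 for Sall4. pInv against pKO ran from -0.11 to 0.21 for Pou5f1, -0.29 to 0.79 for Nanog, -0.28 to 0.93 for Utf1 and -0.038 to 0.31 for Lin28a. For KD against Ctrl the size rule passed 269 genes and 1 of the 9. A minimum of 10 CPM gave 694 genes and 2 of the 9, Utf1 being added, a minimum of 50 CPM 75 genes, a 1.5-fold rule 833 genes, and a counting interval beyond 2-fold 80 genes and 0 of the 9. The cause of these changes was not tested, except that fewer genes enter at a higher minimum. Depth limits Esrrb (1 to 8 counts) and Tfcp2l1 (1 to 19 counts) most.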

Other observations

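The neighbours of Nanog in the order of protein-coding genes were looked up after Slc2a3 had been found closest to it. Slc2a3 is the next such gene after Nanog in the GRCm38 annotation. Gdf3, a growth factor of the pluripotent epiblast on the other side of Nanog, was at 1.90 to 4.10 CPM in all 7 libraries. Dppa3, a gene of naive cells and germ cells that also lies beside Nanog, was at most 0.598 CPM. Foxj2 was at 1.23 to 5.98 CPM. C3ar1, a complement receptor of macrophages near Nanog, was at 12.4 CPM in KD and at 0 in the other 6 libraries.

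Genes of germ cells summed to 11.4 CPM in WT2 against 41.0 to 55.2 in the other 6 libraries. Tfap2c, a factor of germ cell precursors and of trophoblast, accounted for much of this, at 1.79 CPM in WT2 against 19.7 to 35.8 elsewhere. Of the 12 germ cell genes listed, 8 were under 5 CPM in every library, so the sum rests on few genes. Feeder fibroblast genes summed to 8.59 to 15.2 CPM over all 7 libraries.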
